A study of Capitella teleta with 10 samples.

Results

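Of 46409 consensus peaks of open chromatin in the annelid Capitella teleta, 533 had a lower signal in the 64-cell embryo, the gastrula and the stage 4tt larva than in the stage 5 and stage 8 larvae, which were alike. They were chosen on the deposited normalised signal. The stage mean, over the 2 libraries of a stage, had to be at least 100 units at stage 5 and at stage 8, these means had to differ by less than 1.5 times, and each had to be at least 2 times the mean of each of the 3 earlier stages. The height at the late stages, the step between stage 4tt and stage 5 and the likeness of stage 5 and stage 8 are therefore properties of the choice. Values and counts for them are given as a description, and nothing is read from a test of them. Of the 46409 peaks, 37342 reached the minimum at both late stages, 30123 of these stayed within the late ratio, and 533 also met the fold over the early stages.

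Accessibility was measured by ATAC-seq, where a transposase inserts sequencing adapters into DNA not wrapped in nucleosomes, in 10 libraries of about 50000 cells each. Each of the 5 stages has 2 libraries, made per the study's methods from pools of about 500 embryos of 64 cells, 200 gastrulae, 120 larvae of stage 4tt, 90 of stage 5 and 50 of stage 8. All were whole, untreated animals as far as the labels tell, with no strain or genotype named, so that a change within a cell type and a change in the share of that cell type cannot be told apart. The 6 libraries of the first 3 stages were sequenced at Oxford, and the 4 libraries of stage 5 and stage 8 at Novogene on another instrument. Every member was chosen for a step that coincides with this change of sequencing batch, and no stage was sequenced in both batches. Stage and batch cannot be told apart for the step itself. Between the first 3 stages, and between stage 5 and stage 8, the batch is the same.

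Open chromatin marks promoters and enhancers, where transcription factors bind and displace nucleosomes. Spiral-cleaving embryos such as that of Capitella set aside cell lineages early. The study places the onset of trunk development in Capitella after gastrulation. Accessibility alone does not show that an element is active. The peaks carry numbers on numbered scaffolds and could not be assigned to genes here, so that they are described by position, level and neighbourhood.

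The median member was low in all 6 early libraries and nearer the middle of the table in the 4 late ones. The early levels were wide apart, with a highest early mean of at least 100 units in 255 members and of at least 1000 in 7. The median normalised signal of the members, replicate 1 first, was 92.6 and 89.5 for 64-cell embryos, 78.2 and 67.5 for gastrulae, and 73.4 and 70.9 for stage 4tt larvae. It was 261 and 246 for stage 5 larvae and 256 and 266 for stage 8 larvae. The median over all consensus peaks lay between 257 and 335 in the early libraries and between 344 and 367 in the late ones. Set among all peaks, the median member stood at the percentile 18.9 for the 64-cell stage, 19.9 for the gastrula and 18.5 for stage 4tt, then at 39.6 for stage 5 and 39.3 for stage 8. Members were therefore weak to middling late peaks, since 66.4% of them had a late mean under the late median of the table (356 units).

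**Figure D1:**
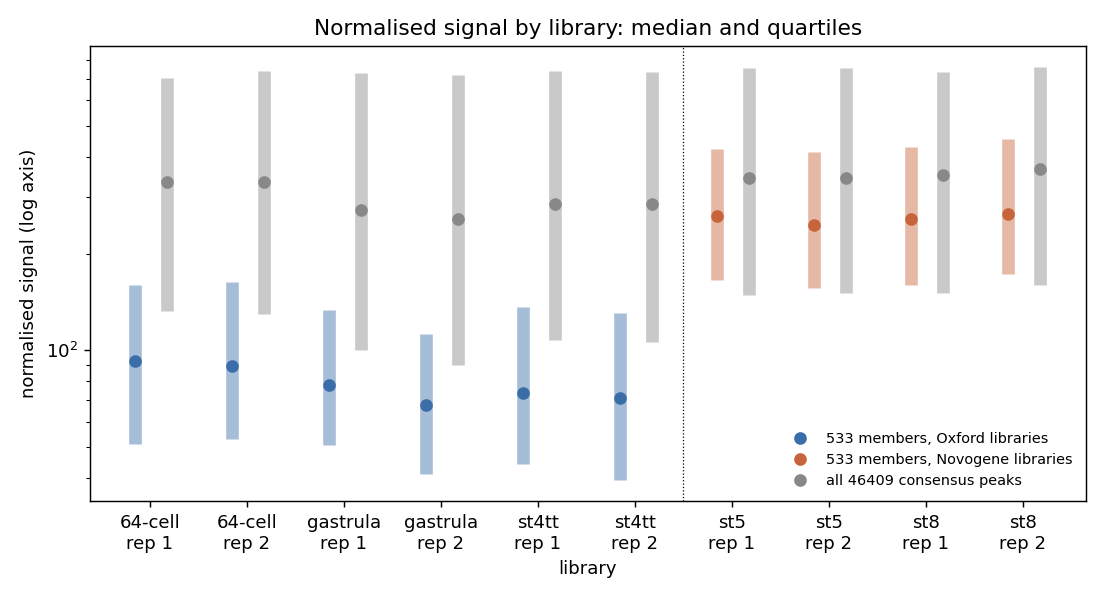
Normalised signal (log axis) in the 10 libraries for the 533 members (blue, Oxford libraries; orange, Novogene libraries) and for all 46409 consensus peaks (grey). Points are medians and bars run from the first to the third quartile. The member medians lie between 67.5 and 92.6 in the early libraries and between 246 and 266 in the late ones, and the dotted line marks the change of sequencing batch.

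The separation was modest for most members. The lower late mean was a median of 2.33 times the highest early mean (quartiles 2.13 and 2.72) over the 532 members with any early signal. It was at least 3 times in 77, at least 4 times in 16 and at least 5 times in 5 members. All 4 late libraries lay above all 6 early libraries in 533 of the 533 members, which the choice nearly forces, and in 22.5% of all peaks. The lowest late library was a median of 1.94 times the highest early library, and 1.04 times in the member where they came closest. In 230 members it was at least 2 times. The highest early mean was that of the 64-cell embryo in 314 members, of the gastrula in 121 and of stage 4tt in 97. The share over all peaks was not computed. The stage median over all peaks was also highest for the 64-cell embryo, at 335 units, against 265 for the gastrula and 286 for stage 4tt.

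The depth behind these values differed between the batches. Reads recovered from the normalised values summed within consensus peaks to between 14041445 and 27237015 per early library and between 37712909 and 57060510 per late one. A median member rested on 40 to 65 reads in an early library and on 332 to 497 reads in a late one. Replicates of the early stages differed more, and the part of depth in this was not tested. The median difference between replicates of a member, on the log2(value + 1) scale, was 0.33 for the 64-cell embryo, 0.34 for the gastrula and 0.26 for stage 4tt, but 0.14 for stage 5 and 0.13 for stage 8. Over all peaks the same medians were 0.20, 0.17, 0.14, 0.11 and 0.11. Replicates were over 2-fold apart in 55 members for the 64-cell embryo (10.3%, against 5.44% of all peaks). The count was 52 for the gastrula (9.76%, against 5.38%) and 38 for stage 4tt (7.13%, against 4.93%). It was 0 for stage 5 (against 1.37% of all peaks) and 1 for stage 8 (0.188%, against 1.37%). In the gastrula, replicate 1 exceeded replicate 2 in 374 of the 533 members, and in 26900 of the 45842 peaks with early signal. The median difference of replicate 1 from replicate 2 was 0.23 on the log2 scale in members, against 0.05 over all peaks.

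The thresholds cut through a continuum, as the peaks on either side show. Just inside the minimum, CTEL_peak_9985 (scaffold 174, bases 275285 to 276127) had a stage 8 mean of 100.1, and just outside it CTEL_peak_3058 (scaffold 1154, bases 26716 to 27020) had one of 99.7. Just inside the fold, CTEL_peak_12210 (scaffold 199, bases 219416 to 219987) stood at 2.0001 times its highest early mean, and just outside it CTEL_peak_11300 (scaffold 189, bases 31344 to 32078) at 1.9998 times. That excluded peak was stronger than most members, with a late mean of 1962 units. Just inside the late ratio, CTEL_peak_1754 (scaffold 108, bases 161679 to 162085) had a stage 8 mean 1.499 times that of stage 5, and just outside it CTEL_peak_10191 (scaffold 177, bases 88613 to 89351) had one 1.51 times as high. A further 613 peaks met the fold and the ratio but not the minimum, and 77 met the fold and the minimum but not the ratio.

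Of the 5 with the highest late mean, 3 began within the first 9 bases of their scaffold. CTEL_peak_9055 (scaffold 16593, bases 8 to 1179) had values of 4579 and 2068 for 64-cell embryos, 4266 and 4082 for gastrulae, 3229 and 1226 for stage 4tt, 15282 and 13524 for stage 5, and 14971 and 17037 for stage 8. CTEL_peak_7925 (scaffold 15410, bases 9 to 957) had 5948 and 2321, then 3638 and 3499, then 3349 and 1308, and later 13145 and 11006, then 14937 and 16719. CTEL_peak_6930 (scaffold 1454, bases 5 to 1254) had 2165 and 915, then 1481 and 1342, then 1529 and 468, and later 6376 and 5598, then 7329 and 8409. In all 3, replicate 1 was over 2 times replicate 2 at the 64-cell stage and at stage 4tt, and the gastrula replicates agreed closely. The first and the second are each the only consensus peak on their scaffold.

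The other 2 of the 5 strongest lay within long scaffolds and had even replicates. CTEL_peak_24591 (scaffold 361, bases 243522 to 246184) had 2267 and 2328 for 64-cell embryos, 2899 and 2872 for gastrulae, 2762 and 2932 for stage 4tt, 7293 and 6642 for stage 5, and 7831 and 7045 for stage 8. Its early libraries stayed within 2932 units and its late libraries began at 6642. It also rose from the 64-cell embryo to the gastrula by 0.33 on the log2 scale (SE 0.066, limma adjusted p = 0.00053). CTEL_peak_19305 (scaffold 283, bases 232823 to 234960) had early values between 1565 and 1874 and late values between 4059 and 4461. These peaks were 2663 and 2138 bp wide. In all, 35 members had a late mean of at least 1000 units and 180 one under 200.

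The 5 best separated members had little early signal, with late means from 133 to 386 units. CTEL_peak_5473 (scaffold 1336, bases 51689 to 52099) is listed at 0 in all 6 early libraries, and at 199 and 269 in the stage 5 libraries and 139 and 204 in the stage 8 libraries, on 254, 402, 271 and 258 reads. It is the 1 member for which no fold can be given. CTEL_peak_7245 (scaffold 14874, bases 1208 to 1911) had 44.0 and 38.8 for 64-cell embryos, 48.1 and 38.8 for gastrulae, 30.6 and 28.1 for stage 4tt, 336 and 422 for stage 5, and 298 and 342 for stage 8, a separation of 7.37 times and the widest of the 532 members with early signal. CTEL_peak_29030 (scaffold 442, bases 174909 to 176813) had early values from 47.5 to 74.1 and late values from 362 to 408, a separation of 5.70 times. In both, all late values were over 3 times every early one.

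The other 2 of the 5 best separated members had uneven replicates at some early stages. CTEL_peak_11708 (scaffold 192, bases 239231 to 240227) had 16.3 and 7.8, then 2.7 and 20.0, then 56.7 and 6.1 in the early stages, on 2 to 50 reads, and 195 to 271 in the late libraries. CTEL_peak_10679 (scaffold 18085, bases 232 to 881) had 4.7 and 3.9 for 64-cell embryos, on 2 reads in each, 27.2 and 14.9 for gastrulae, 28.5 and 8.6 for stage 4tt, and 106 to 173 later. The largest difference between replicates of any stage was in CTEL_peak_18822 (scaffold 2777, bases 8641 to 10057), with 187 and 2.5 for gastrulae, a difference of 5.74 on the log2 scale, 0 and 0 for stage 4tt, and 198 to 243 in the late libraries.

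**Figure D2:**
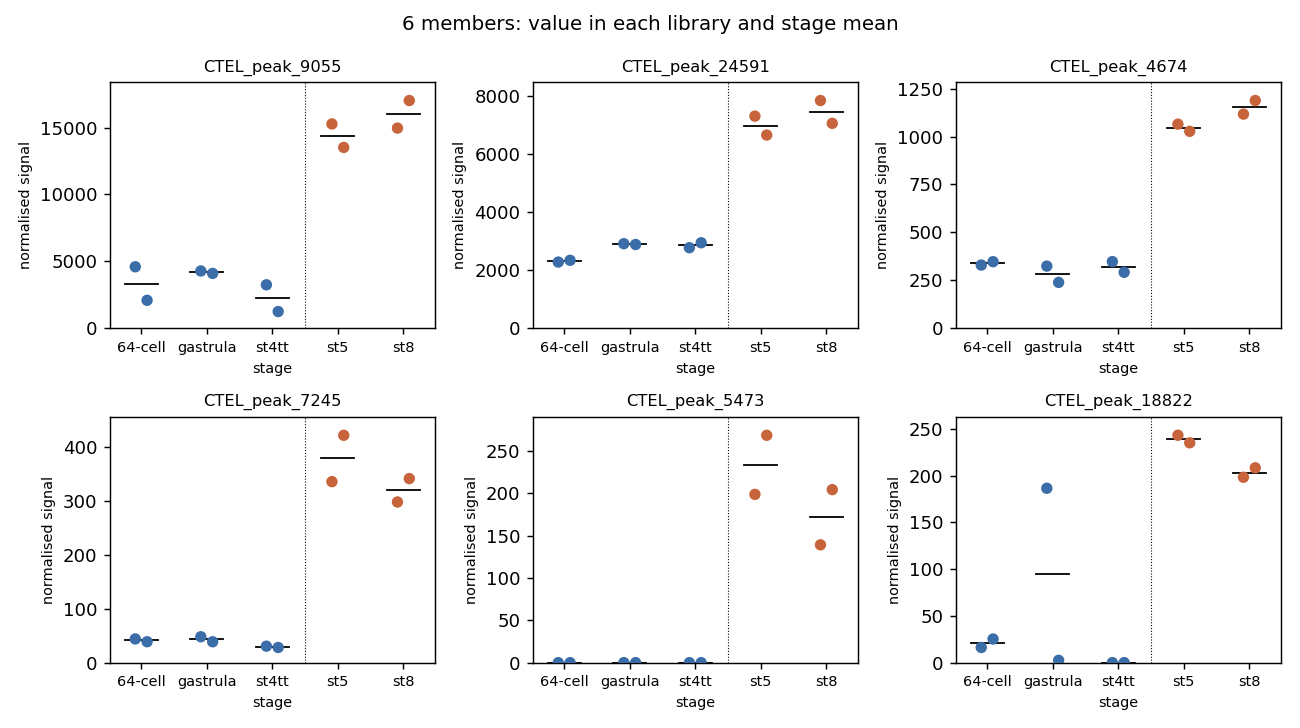
Normalised signal (linear axis from 0) of 6 members in each library, with points for the 2 libraries of a stage (blue, Oxford; orange, Novogene) and a line for the stage mean. CTEL_peak_24591 has close replicates in every stage, CTEL_peak_9055 parts its replicates at the 64-cell stage and stage 4tt, CTEL_peak_5473 is listed at 0 in all early libraries, and CTEL_peak_18822 reaches 187 in 1 gastrula library.

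The step from stage 4tt to stage 5 was measured in the same fit as the other steps, as a description. Members rose by a median of 1.71 on the log2(value + 1) scale, against 0.23 over all peaks. Of the 533 members, 529 passed limma's test upward (39.8% of all peaks) and 0 downward (20.0% of all peaks). At an unadjusted p under 0.05 the downward count was also 0. With edgeR and with DESeq2 on the recovered reads the downward count was also 0. This contrast chose the members, so that nothing is read from these counts. The 4 members that did not pass were CTEL_peak_10040, CTEL_peak_22200, CTEL_peak_27377 and CTEL_peak_40436, named after their values were seen. The first of these (scaffold 175, bases 102967 to 104138) had 5.6 and 109 for stage 4tt and 506 and 557 for stage 5. The median over all peaks depends on the scaling. It was 0.23 as deposited and 0.04 after TMM factors were applied, where the members rose by a median of 1.52.

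Since replicates of a stage are separate libraries, the choice can be read in libraries it did not use, within the same batches. On replicate 1 alone, the rule took 563 peaks, and in replicate 2 of these stages 245 of them (43.5%) met the whole rule. The parts held unequally. In replicate 2, 528 of the 563 reached the minimum, 474 stayed within the late ratio, 278 kept the fold of 2, 483 a fold of 1.5, and in 558 both late libraries stood above the 3 early ones. The median separation was 2.27 times in replicate 1, where it was chosen, and 1.99 times in replicate 2. Chosen on replicate 2, the rule took 597 peaks, of which the same 245 held in replicate 1. Both late libraries stood above the 3 early ones in 581 of those 597, and the median separation was 1.92 times there against 2.35 times in the choice. Over the table, on stage means, both late stages stood above the 3 early ones in 14746 of the 45842 peaks with early signal. That share was not computed for single replicates.

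Within the first batch the rule sets only upper limits, and the steps between the 64-cell embryo, the gastrula and stage 4tt did not choose the members beyond that. From the 64-cell embryo to the gastrula more members closed than opened. Of the 533 members, 188 closed (35.3%, against 36.3% of all peaks) and 24 opened (4.50%, against 27.1% of all peaks) at a limma adjusted p under 0.05, and the median change was -0.40 on the log2 scale, against -0.08 over all peaks. The share that closed was near that of the table, and the share that opened was below it. The upper limit can remove peaks that rose at an early step and stayed high. Its part in the opened shares at both early steps was not tested, so that nothing is read from the lower share. The 188 that closed went from a median of 158 to 92.4 units, and the 24 that opened from 40.6 to 83.9 units. The balance depends on the scaling. The share of called members that opened was 11.3% as deposited, 19.4% with TMM factors and 41.01% with quantile normalization. With quantile normalization 82 members closed and 57 opened, with a median of -0.08, and with TMM factors 154 closed and 37 opened. Without the gastrula replicate 2, the lower of the gastrula libraries, 41 opened and 146 closed.

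From the gastrula to stage 4tt calls went both ways. Of the 533, 87 opened (16.3%, against 21.7% of all peaks) and 48 closed (9.01%, against 14.7% of all peaks), with a median change of 0.09 against 0.05 on the log2 scale. With TMM factors 74 opened and 63 closed, so that 54.0% of the called members opened against 64.4% as deposited. With quantile normalization 78 opened and 54 closed. Without the gastrula replicate 2 these counts were 69 and 63 and the median was -0.01. Without the gastrula replicate 1 they were 108 and 26, without the stage 4tt replicate 1 they were 52 and 53, and without the stage 4tt replicate 2 they were 64 and 29. In all, 280 members (52.5%) passed neither early test, against 27.2% of all peaks. Members were weaker than most peaks at these stages and rested on fewer reads. Closing into the gastrula followed by opening into stage 4tt was called in 77 members (14.4%, against 12.7% of all peaks), and the opposite course in 15 (2.81%, against 7.66% of all peaks). Both steps share the gastrula libraries.

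The extremes of these early steps were small in reads. CTEL_peak_29068 (scaffold 4435, bases 5821 to 6330) had 32.7 and 39.1 for 64-cell embryos, 10.9 and 6.2 for gastrulae, and 40.98 and 39.5 for stage 4tt. It had the largest called fall into the gastrula, -1.99 on the log2 scale (SE 0.33, limma adjusted p = 0.00012), on 14 and 20 reads before and 8 and 5 after. The largest called rise into the gastrula was that of CTEL_peak_10679, described above, at 2.01 (SE 0.49, limma adjusted p = 0.0026). CTEL_peak_23012 (scaffold 33451, bases 621 to 1115) had 56.1 and 84.9 for gastrulae and 14.8 and 13.5 for stage 4tt, the largest called fall at that step, -2.21 (SE 0.29, limma adjusted p = 7.4e-05). The largest called rise at that step was in CTEL_peak_40436 (scaffold 7508, bases 453 to 878), at 2.61 (SE 0.82, limma adjusted p = 0.035). It rests on gastrula values of 19.1 and 1.2, and without the gastrula replicate 2 it was 1.03 and no longer passed.

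Stage 5 and stage 8 were both sequenced at Novogene, and the rule keeps them within 1.5 times of each other. The higher late mean was a median of 1.14 times the lower. Stage 8 had the higher mean in 337 members. Both stage 8 libraries lay above both stage 5 libraries in 209 members (39.2%, against 36.4% of all peaks), and below both in 107 (20.1%, against 36.8% of all peaks), which the rule shapes. At a limma adjusted p under 0.05, 20 members opened further (3.75%, against 15.3% of all peaks) and 2 closed (0.375%, against 17.4% of all peaks). The rule caps this step, so that nothing is read from these counts. The share of called members that opened was 90.9% as deposited and 78.9% with quantile normalization. Stage 5 values of the 20 ranged from 276 to 2391. An example is CTEL_peak_10106 (scaffold 176, bases 55588 to 57233), with 2391 and 2204 for stage 5 and 3122 and 3038 for stage 8, a difference of 0.42 on the log2 scale (SE 0.085). The largest was CTEL_peak_12202 (scaffold 199, bases 137552 to 138776), with 304 and 342 for stage 5 and 486 and 476 for stage 8, a difference of 0.57 (SE 0.19). The 2 that closed were CTEL_peak_3447 (scaffold 1189, bases 26537 to 27998), from 1272 and 1078 to 838 and 758, and CTEL_peak_11650 (scaffold 1918, bases 5933 to 7785), from 674 and 600 to 427 and 458. These peaks were named after their values were seen. The count rests on each late library, and without any 1 of them between 4 and 10 members opened and 0 closed.

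The peak lists, which the authors called separately in each library, were not used by the rule, although they come from the same reads. A peak was taken as called where at least 1 base overlapped. Members were called less often than the table in the early lists and more often in the late ones. The rule shaped the early and late levels of these same reads, so that nothing is read from this contrast. The early lists called between 15.2% and 25.9% of members, against 46.6% to 63.9% of all peaks. At stage 5 the lists called 85.9% and 84.6% of members, against 76.3% and 76.7% of all peaks, and at stage 8 they called 97.2% and 96.1%, against 83.5% and 81.4%. In all, 204 members (38.3%, against 7.58% of all peaks) were called in all 4 late lists and in none of the 6 early lists, and 325 (61.0%, against 21.3%) were called in no early list. With each list cut to its strongest 40205 peaks, the length of the shortest, 102 members (19.1%, against 2.89% of all peaks) met the first condition. Members not called early were weaker, with a median late mean of 230 units and a median width of 753 bp, against 389 units and 1382 bp in the 47 members called in all 10 lists.

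**Figure D3:**
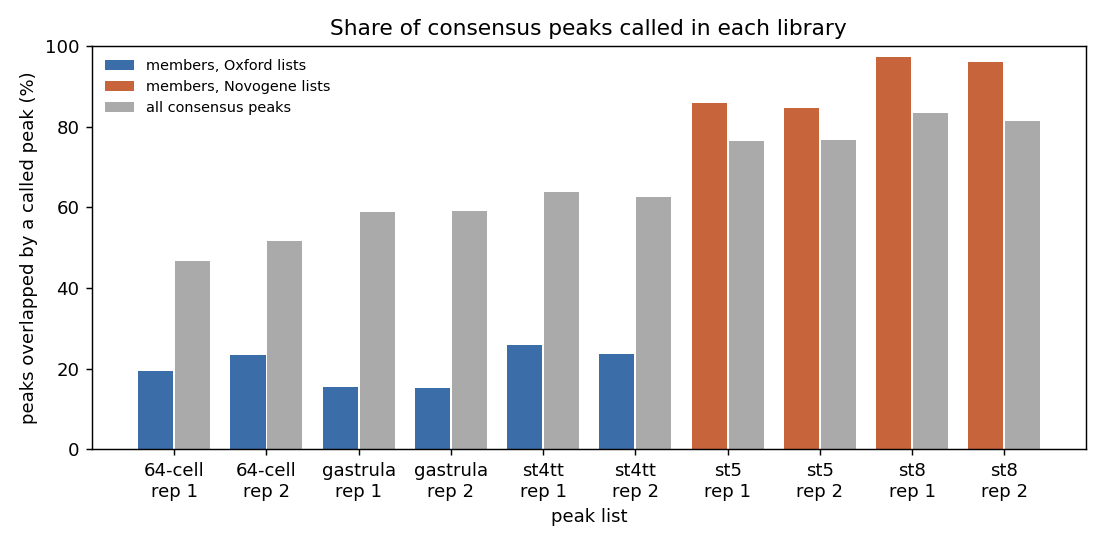
Share of peaks (%) that overlap a peak called in each of the 10 lists, for the 533 members (blue, Oxford lists; orange, Novogene lists) and for all 46409 consensus peaks (grey). Members lie between 15.2% and 25.9% in the early lists and between 84.6% and 97.2% in the late lists, below the grey bars in the 6 early lists and above them in the 4 late ones.

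In 47 members, called in all 10 libraries, the calls and the table changed by unlike amounts. The peak caller gave each call a fold enrichment over its local background, and the strongest overlapping call was taken. This is a measure of a call, whereas the signal is that of the whole consensus peak. Being called in all 6 early lists also selects members with early enrichment. The mean late signal in the table was a median of 3.47 times the mean early signal in these members, whereas the mean late fold enrichment was a median of 1.11 times the early one. Over the 14608 consensus peaks called in all 10 lists the same medians were 0.943 for the signal and 0.924 for the enrichment. The late enrichment was the higher in 34 of the 47 members, against 36.9% of those peaks, and at least 2 times as high in 1, CTEL_peak_1708 (scaffold 1078, bases 35 to 1043), named after its values were seen. In the 20 of the 47 on scaffolds with over 10 peaks, the median ratios were 3.14 for the signal and 1.09 for the enrichment. CTEL_peak_9055, the strongest member, had a fold enrichment from 18.1 to 21.5 in the early lists and from 16.3 to 21.5 in the late ones. Its signal in the table rose from 3242 to 15203 units. This peak is alone on its scaffold and ends at the last called base there, 1179. Why its enrichment did not follow its signal was not tested. In CTEL_peak_18822, both stage 4tt lists held a peak with a fold enrichment of 8.58 and 7.58 where the table has 0 in both libraries. In CTEL_peak_23012 all 6 early lists held a peak, with an enrichment from 3.402 to 8.39, on 11 to 68 reads in the table.

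A value of 0 in the table did not always go with the absence of a call. Over all consensus peaks with 0 in a library, between 43.5% and 65.3% overlapped a peak called in that same library. Among members such zeros were few, between 0 and 3 in any library, and 2 of them were called. CTEL_peak_5473, listed at 0 early, was called in 0 of the 6 early lists and in 3 of the 4 late ones, with fold enrichments from 2.33 to 2.95. Why the table and the lists differ was not tested, since the reads were not analysed here.

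The median width was 913 bp (quartiles 608 and 1280), against 810 bp over all peaks, from 107 bp in CTEL_peak_21932 (scaffold 319, bases 223642 to 223748) to 3509 bp in CTEL_peak_21819 (scaffold 3173, bases 4986 to 8494). The width grew with level, from a median of 660 bp in the 134 members with the smallest lower late mean to 1240 bp in the 133 with the largest. The strongest call overlapping a member was 761 bp wide at the median, against 612 bp over all peaks. Peaks that opened only at stage 8 by the same rule (659) were narrower, with a median of 558 bp, and the 149 that opened at the gastrula were wider, with 1109 bp. Summits of the strongest calls lay a median of 78 bp apart between the stage 5 libraries and 89 bp apart between the first libraries of stage 5 and stage 8, against 48 and 53 bp over all peaks, in the 420 and 445 members called in both.

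Their place in the assembly differed from that of other peaks. The 533 members lay on 378 of 5551 scaffolds, 299 of which held a single member. Scaffolds with only 1 consensus peak held 14.6% of members, against 7.26% of all peaks, and scaffolds with over 50 peaks held 26.6%, against 47.9%. Put the other way, 2.32% of the peaks alone on a scaffold were members, against 0.639% of those on scaffolds with over 50. Of the peaks that opened at stage 8, 6.53% were alone on a scaffold and 48.4% lay on scaffolds with over 50 peaks. Within the first 100 bases of a scaffold began 17 members (3.19%), against 1.21% of all peaks. Peaks alone on a scaffold had less even replicates throughout the table, with a median difference at the 64-cell stage of 0.38 on the log2 scale both in the 78 members and in all such peaks, against 0.30 and 0.18 on scaffolds with over 50 peaks. The part of scaffold size in the choice of members was not tested.

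Some members stood together. Counting members that follow each other with no other consensus peak between them, 86 members (16.1%) lay in 30 runs of 2, 6 runs of 3 and 2 runs of 4. The run of 4 with the higher signal filled scaffold 1274, where all 4 consensus peaks were members. CTEL_peak_4674 (bases 3332 to 5185) had 328 and 346, then 323 and 238, then 346 and 291 in the early stages and 1065 and 1027, then 1117 and 1188 later. The next, CTEL_peak_4675 (bases 6031 to 6608), went from early values between 131 and 232 to late values between 422 and 565, and CTEL_peak_4676 (bases 9197 to 9969) from 169 to 217 early to 493 to 734 late. CTEL_peak_4677 (bases 12096 to 13008) had 151 to 257 early and 590 to 697 late. All 4 had lower gastrula than 64-cell means.

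The second run of 4 lay on scaffold 108, a long scaffold with 70 consensus peaks of which 7 were members. CTEL_peak_1790, CTEL_peak_1791, CTEL_peak_1792 and CTEL_peak_1793 spanned bases 405300 to 419304, with late means of 198, 239, 152 and 185 units and separations of 2.10, 2.23, 3.06 and 3.44 times. On scaffold 643, CTEL_peak_37136, CTEL_peak_37137 and CTEL_peak_37138 followed each other from base 45346 to base 57958. The middle one, 2611 bp wide, had 566 and 763 for 64-cell embryos, 247 and 289 for gastrulae, 430 and 387 for stage 4tt, 1528 and 1569 for stage 5, and 1735 and 1902 for stage 8. It fell into the gastrula by 1.29 on the log2 scale (SE 0.13, limma adjusted p = 1.7e-06) and rose into stage 4tt by 0.61 (SE 0.13, limma adjusted p = 0.0031), and its late libraries lay above all early ones.

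On a few scaffolds almost every peak moved this way. These scaffolds were picked for their number of members, after the values were seen. On scaffold 559, 8 of 13 consensus peaks were members, spread over 128 kb. One further peak is listed at 0 in all 10 libraries. The other 4 non-members also had higher late means, and 2 of them missed the rule narrowly, at 1.99 and 1.98 times their highest early mean. In all, 11 of the 12 peaks with signal stood at 1.5 times or more, 8 of them members by the rule, against 9.15% over the table. In each of these 12 peaks the 64-cell replicate 2 exceeded replicate 1, which held for 25038 of the 45842 peaks with early signal in the table. The strongest member there was CTEL_peak_34075 (bases 65233 to 66849), with 258 and 531 for 64-cell embryos, 337 and 171 for gastrulae, 315 and 355 for stage 4tt, 996 and 1100 for stage 5, and 965 and 1079 for stage 8.

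**Figure D4:**
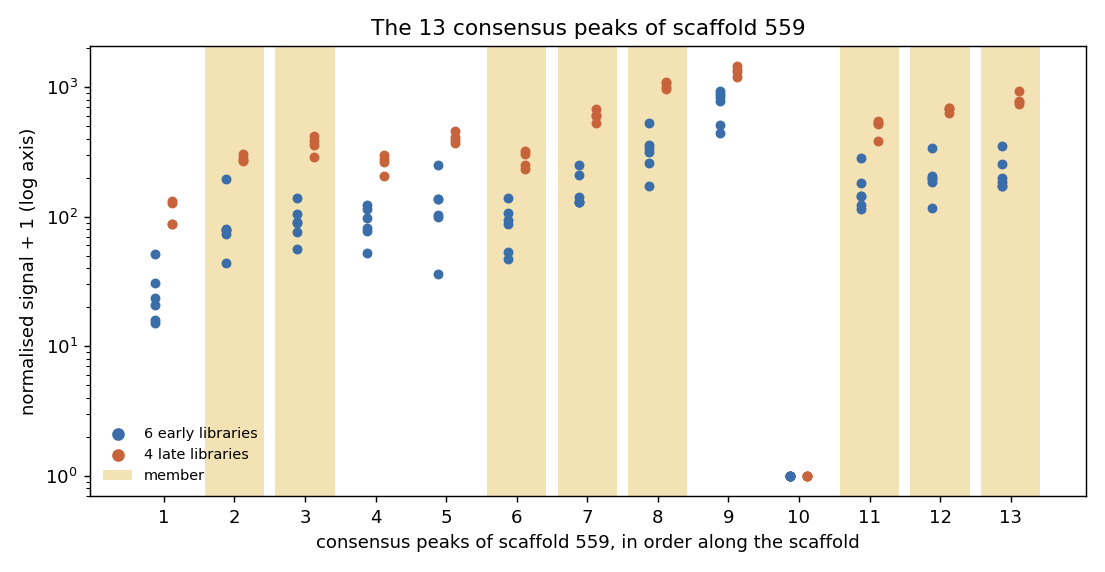
Normalised signal + 1 (log axis) of the 13 consensus peaks of scaffold 559 in their order along the scaffold, in the 6 early libraries (blue) and the 4 late libraries (orange), with the 8 members shaded. Late points lie above early points in the 12 peaks with signal, members or not, and the peak at 1 on this axis is listed at 0 in all 10 libraries.

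Other scaffolds showed the same to a lesser degree. On scaffold 594, 6 of 14 peaks were members and 11 of the 14 stood at 1.5 times or more. On scaffold 676 it was 5 of 16 and 13 of the 16, and on scaffold 643 it was 5 of 14 and 8 of the 14. The 6 members of scaffold 594 lay between bases 41902 and 169025 and ranged from early values of 17.3 to 169 to late values of 116 to 593. On the long scaffolds with as many members, these are a small part of the peaks. On scaffold 7, with 6 members among 172 peaks, the median peak with signal stood at 0.922 times its highest early mean, and on scaffold 51, also with 6, at 0.967 times. On scaffold 559 that median was 2.47 times, on scaffold 594 it was 2.18 times, and over the table it was 0.794 times. Members are 8 of the 12 peaks with signal on scaffold 559, which forces a median of at least 2 times there. The contrast follows in part from the choice of scaffolds, so that nothing is read from it.

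The same rule was set at the other steps to see how many peaks open or close there. Opening at the gastrula and remaining so took 149 peaks, opening at stage 4tt took 47, and opening at stage 8 took 659, where no later stage limits the choice. The mirror rule, with the early stages alike and high and the late stages low, took 65 peaks for the step from stage 4tt to stage 5. As deposited, 533 peaks opened and 65 closed at this step. The rules are not equally strict, since opening asks for likeness of the 2 late stages and closing for likeness of the 3 early ones. The number of stages that had to be alike also differs between the other steps. The part of this in the counts was not tested. The counts at this step also depended on the scaling. After TMM factors were applied the counts were 281 and 129, and with quantile normalization they were 211 and 172. Of the 533 members, 278 were also taken with TMM factors and 204 with quantile normalization.

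**Figure D5:**
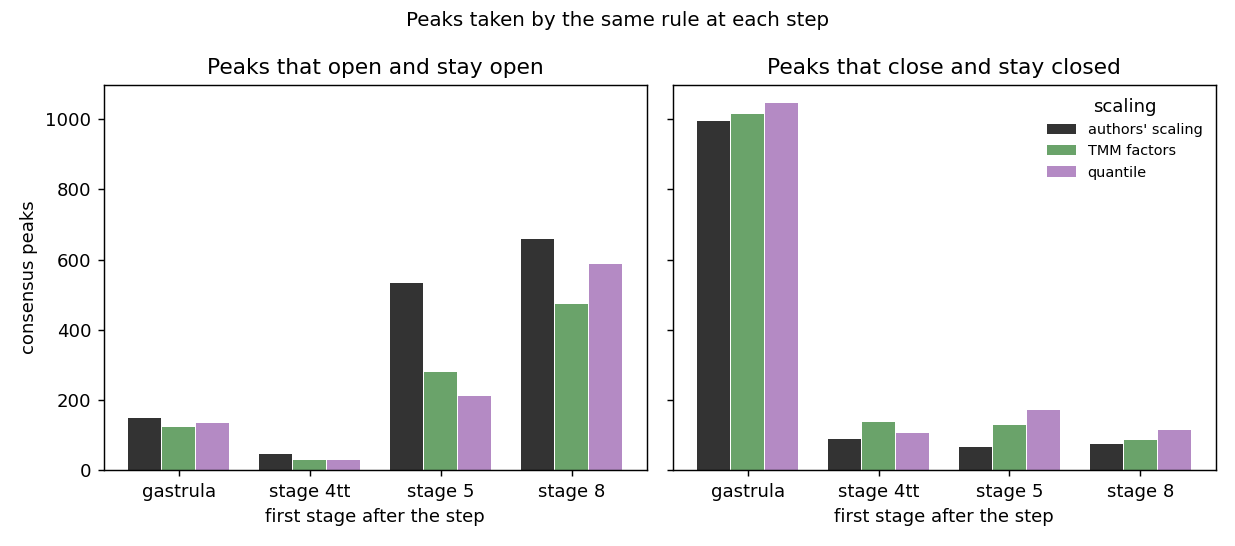
Number of consensus peaks taken by the same rule at each step (horizontal axis, the first stage after the step), opening on the left and closing on the right, as deposited, with TMM factors and with quantile normalization. At the step to stage 5, 533 open and 65 close as deposited, 281 and 129 with TMM factors, and 211 and 172 with quantile normalization.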

How the data were processed

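The growth protocol in the labels describes another annelid, Owenia fusiformis, whereas the organism label, titles and scaffold names give Capitella teleta. The authors trimmed and mapped reads (NextGenMap), removed duplicates (SAMtools), shifted reads for the transposase (deepTools) and called peaks per library with MACS2 2.2.7.1. The genome build used for mapping is not given in the sources used here. Per the file headers and values, the deposited lists give each peak a score, a fold enrichment (a ratio) and the −log10 of its p-value and of its q-value. The authors removed peaks in repeats, merged reproducible peaks with DiffBind, normalised using DESeq2, and deposited 1 normalised signal value per peak and library. These are not counts. Whole reads were recovered with a running median of the step (41 peaks, 14 rounds), and within 0.1 reads 99.99% of values from 1 to 50 reads and 70.5% of all values above 0 came out whole. Starts are counted from 1. limma 3.58.1 (trend, robust, 10 libraries, no covariates, two-sided) tested log2(value + 1), a scale that understates changes of weak peaks, with Benjamini-Hochberg adjustment over 46409 peaks, and was tested on simulated data. edgeR 4.0.16 and DESeq2 1.42.0 on recovered reads were added after seeing the data. The study's reporting summary calls the 2 libraries of a stage biological replicates, but no source used here says which animals or cultures each came from, and p-values measure only the spread between these libraries. Members, named peaks and lists were chosen with earlier results of these data known. Peaks were named by a fixed rule: the 5 strongest and 5 best separated members, 2 on each side of every threshold (1 of each is given), the widest and narrowest, the 3 longest runs (ties by signal), the largest called early changes and the most uneven replicates. Peaks named otherwise are marked. No gene names or sequences are given, since no genome was used.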

Additional observations from a re-analysis of the deposited data

Results flagged for a closer look

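The consensus table leaves out some regions that were called only in the late lists. When the called peaks of the 10 lists were merged into 93241 regions, 4569 were called in all 4 late lists and in no early list. Of these, 1090 (23.9%) overlap no consensus peak and so have no value in the table. Only 203 of the 4569 overlap a member, so that most such regions are not members. The share outside the table over all 93241 regions was not computed. The regions outside the table had a median width of 748 bp, against 874 bp for those over it. In the other direction, 553 regions were called in all 6 early lists and in no late list, and 339 of them lie outside the table. Per the study's methods, peaks that did not pass a reproducibility filter per stage and peaks in repeats were removed before the table was made, and how many of these regions either filter took was not tested. The late lists are longer than the early ones and come from the other batch, and the part of either in these counts was not tested.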

How the results depend on the processing

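The number of members followed the thresholds, with 329 at a minimum of 200 units, 2328 at a fold of 1.5 and 78 at a fold of 3, and the scaling, with 281 with TMM factors, 211 with quantile normalization and 306 with TMM factors on recovered reads. Leaving out each library gave 495 to 631. Peaks closing at stage 5 numbered 129 with TMM factors and 172 with quantile normalization. Members called in all 4 late lists and no early list numbered 102 with lists of equal length.

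From the 64-cell embryo to the gastrula, 14 members opened and 43 closed with a minimum log2 change of 1, 14 and 104 with only the 4 libraries compared in the fit, and 57 and 82 with quantile normalization, and 37 opened with TMM factors. Leaving out each library gave 17 to 41 opened. At the step into stage 4tt, 15 opened and 24 closed with the minimum change, and 46 and 20 with the 4 libraries, and leaving out each library gave 52 to 108 and 26 to 63. From stage 5 to stage 8, 0 and 0 passed with the minimum change, 91 and 37 with the 4 libraries, and 40 and 8 with edgeR, 8 closed with quantile normalization, and leaving out each library gave 4 to 28 and 0 to 5. The minimum change acts by construction, and for the rest the cause was not tested. Of 295 alternatives, 241 stayed within 1.5 times or kept their call, and 6, all on CTEL_peak_40436, lost it. No alternative reversed the direction of the 4 peaks that were followed singly, each at the early step where it was called. The balance of members into stage 4tt did turn, to 15 opened and 24 closed with the minimum change. Without the stage 4tt replicate 1 it was 52 and 53. Without the gastrula replicate 2 the median change of members at that step was -0.01, against 0.09 with all libraries.

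The replicate numbers showed no pairing of the libraries in the signal over all peaks. Deviations of same-numbered libraries correlated between -0.053 and 0.031 over 10 pairs of stages. With the replicate block, 24 opened and 188 closed into the gastrula, 82 and 48 into stage 4tt, 528 and 0 into stage 5, and 21 and 3 into stage 8. Motifs were not searched, since no genome was used. Early values of the median member rest on only 40 to 65 reads, which limits early comparisons.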
